A study of Mus musculus with 6 samples.

Results

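Genes that mark spermatogonia, the mitotic germ cells at the base of the seminiferous tubule, were examined in mouse testes. The mice were wild type or labelled Prss54KO, after Prss54, a gene of the serine protease family. The 10 genes are Zbtb16, Gfra1, Ret, Id4, Kit, Stra8, Nanos2, Nanos3, Sohlh1 and Dmrt1. They were chosen by name, and every gene-detecting probe that carries one of these names was taken. This gave 10 probes for 8 of the 10 genes, out of 41174 gene probes with 27376 gene names. Total RNA came from whole testes of 3 wild-type mice (WT) and 3 mice labelled Prss54KO, all males of 6 to 8 weeks on a mixed 129Sv/C57BL/6 background. Each mouse had 1 Cy3-labelled array. The labels do not say which part of Prss54 was disrupted or whether the mice were littermates. In RNA of whole tissue, fewer cells of a type and less RNA per cell cannot be told apart.

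Spermatogonial stem cells are kept by glial cell line-derived neurotrophic factor (GDNF), which Sertoli cells release and which binds the co-receptor Gfra1 and the receptor kinase Ret. Zbtb16, Id4 and Nanos2 act in these undifferentiated cells. Retinoic acid then starts differentiation: the stem cell factor receptor Kit appears, Sohlh1 and Nanos3 act in the transit from one state to the other, Dmrt1 restrains entry into meiosis, and Stra8 is switched on for it. Spermatogonia are a small share of an adult testis, which is rich in spermatocytes and spermatids, so a whole-testis array sees them diluted.

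None of these genes was called different between the genotypes. With limma, a linear model with a shared estimate of spread, 0 of the 6 testable genes and 0 of their 8 testable probes passed an adjusted p of 0.05. The background was 0% of 19388 genes and 0% of 28912 probes. Prss54 itself is part of this uncalled background, although its level was 2.96-fold lower in Prss54KO (log2 difference -1.56, limma's adjusted p 0.0764). A count of 0 at this threshold can thus not exclude a change in a member. Without adjustment, a p under 0.05 was reached by 642 genes (3.31%), none of them a member, and by 929 probes (3.21%), 1 of them a member's. In 0 of the 6 genes did the genotypes separate without overlap, against 7.79% of all genes (4.18% with all Prss54KO mice above all WT mice and 3.61% with them below). The median log2 difference of the 6 genes, Prss54KO minus WT, was -0.005, against 0.01 for all genes tested. Their median absolute log2 difference was 0.04, against 0.06 for all genes. The p-values measure the spread between these 3 mice per genotype.

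Levels below are either the processed signal, in intensity units of the scanner software, or its log2 value minus the array's 75th percentile, the scale on which all differences and tests stand. A spot well above background is one that the scanner software marks so. The lowest signal with that mark lay between 24.2 and 46.0 on the 6 arrays. Signals of different probes are not comparable with each other.

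**Figure D1:**
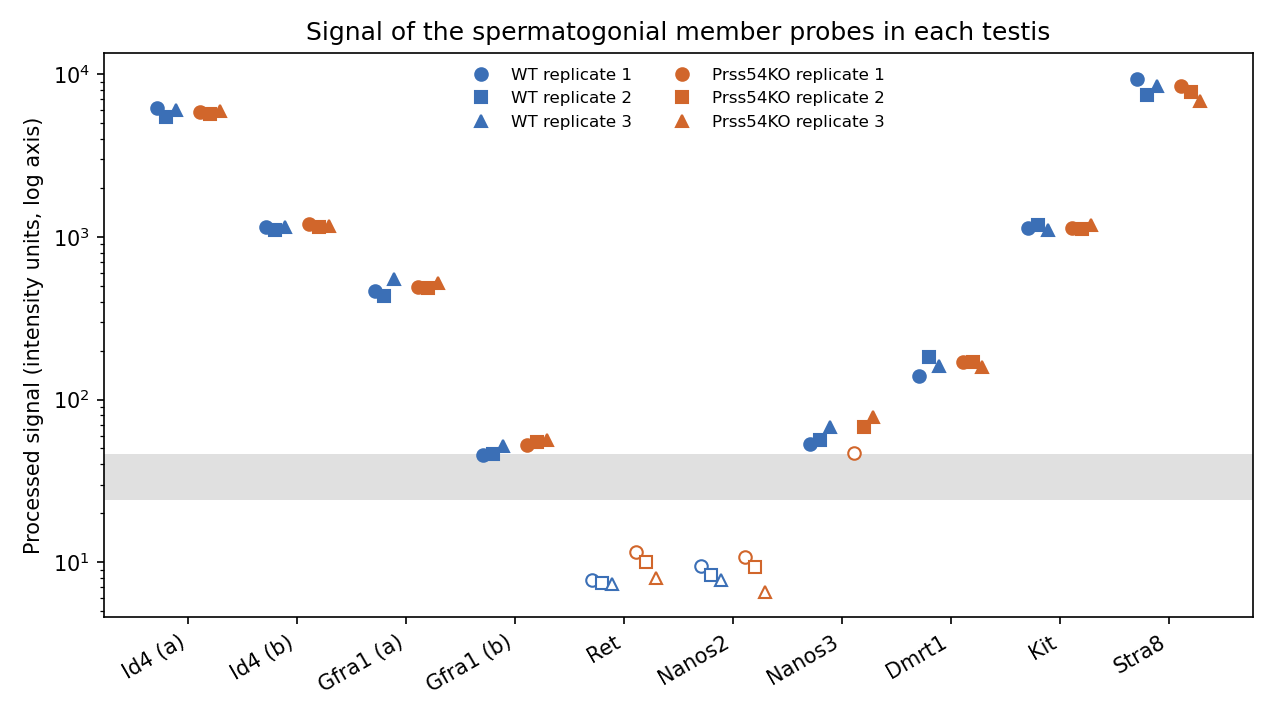
Processed signal (log axis) of the 10 member probes in each of the 6 testes, in the order of roles from stem cell to differentiation. Letters a and b tell apart the brighter and the dimmer probe of Id4 and Gfra1, filled symbols are well above background and open ones are not, and the grey band spans the lowest well-above-background signals of the arrays. WT and Prss54KO signals overlap for the 8 testable probes except the dimmer Gfra1 probe, where the 3 Prss54KO signals lie just above the 3 WT signals, and all Ret and Nanos2 symbols are open and below the band.

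Gfra1, the GDNF-binding co-receptor, had 2 probes. The brighter one lies on the minus strand of chromosome 19 and covers 767 bases of the genome (chr19:58313006-58313772, mm9) with 60 probe bases, so it reaches over an intron and detects the spliced RNA. It is shown because the Gfra1 result rests on it. All its bases are in capitals, since the whole probe binds:
Gfra1 probe a: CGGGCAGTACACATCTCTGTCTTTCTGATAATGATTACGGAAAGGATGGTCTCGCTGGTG
Its signal was 467, 433 and 549 in WT replicates 1, 2 and 3 and 489, 484 and 520 in Prss54KO replicates 1, 2 and 3. All Prss54KO mice lay inside the WT range. Between genotypes the log2 difference was 0.02 (SE 0.07, limma's adjusted p 0.9999), a fold of 1.01 with a 95% interval of 0.894 to 1.15.

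The dimmer Gfra1 probe (chr19:58311604-58311663, mm9, minus strand) starts at base 2742 of the same transcript, where the brighter one starts at base 1340. Its signal was 45.5, 46.0 and 51.9 in WT and 52.8, 54.7 and 56.2 in Prss54KO replicates 1, 2 and 3. This was the only one of the 8 testable probes whose genotypes did not overlap: every Prss54KO value lay above every WT value. Of all probes tested, 4.32% had all Prss54KO mice above all WT mice and 3.56% had them all below, 7.89% in either direction. This came to a log2 difference of 0.16 (SE 0.06), a fold of 1.12 with a 95% interval of 1.02 to 1.23. The unadjusted p was 0.0265, rank 441 of 28912 probes, and limma's adjusted p was 0.9998. With limma's intensity trend and robust variance the unadjusted p was 0.288. On the only slide that held both genotypes the log2 difference was 0.09. The signal stood close to the lowest one marked as well above background, and the brighter probe of the gene did not show this separation.

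Ret, the kinase that signals with Gfra1, was not detected. Its probe (chr6:118103903-118103962, mm9, minus strand, base 3867 of the transcript) was printed in 10 spots per array, and 0 of the 60 spots were well above background. It is shown because the failure to detect Ret rests on this probe alone, with all of it in capitals:
Ret probe: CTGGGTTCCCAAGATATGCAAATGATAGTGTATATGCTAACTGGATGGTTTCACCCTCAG
A weaker mark of the software, a signal positive and significantly over background, was set on 0, 1 and 0 of the 10 spots in WT replicates 1, 2 and 3 and on 2, 2 and 4 in Prss54KO replicates 1, 2 and 3. That is 1 of 30 spots in WT and 8 of 30 in Prss54KO. The share of all gene spots with this weaker mark was not computed. The share of gene spots well above background was 66.2%, 67.9% and 74.8% in Prss54KO replicates 1, 2 and 3. Replicates 1 and 2 thus had the lowest shares of all arrays and replicate 3 the highest. Both marked spots of Prss54KO replicate 2 were also marked as outliers. For the other 29 WT and 22 Prss54KO spots the software wrote a substitute value, which has no order between arrays, so no fold is given. Spots of 1 array share 1 RNA sample and were not tested.

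**Figure D2:**
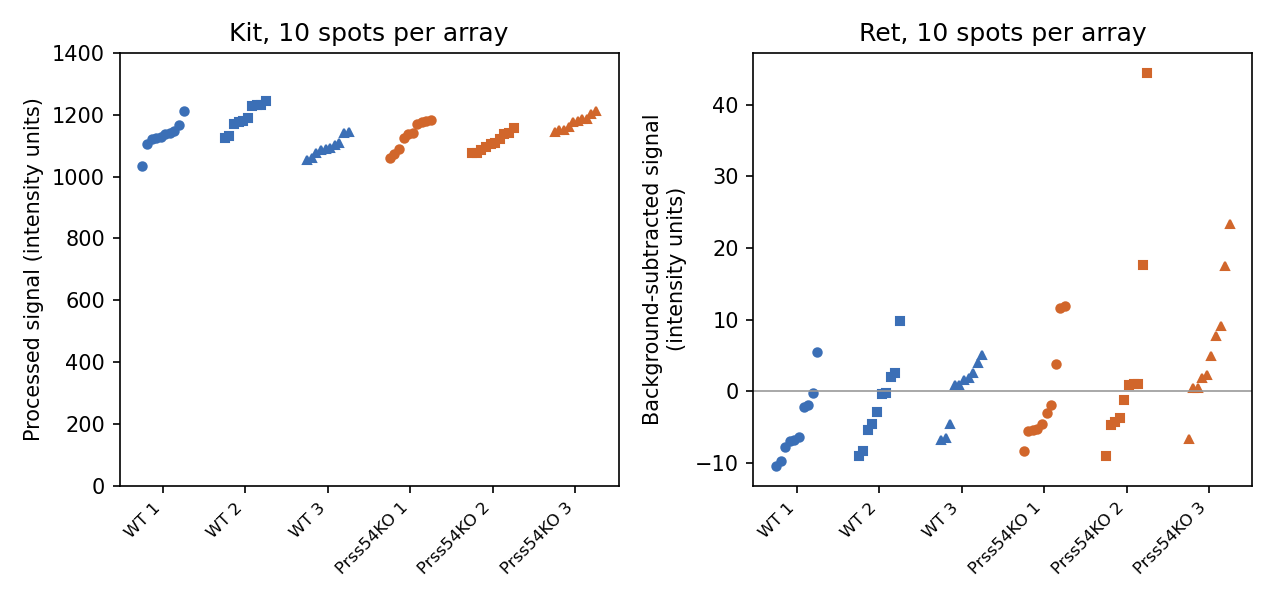
The 10 spots of the Kit probe (left, processed signal) and of the Ret probe (right, signal after background subtraction) on each array, sorted by value within an array. Kit spots lie between 1033 and 1244 on all arrays, while most Ret spots scatter around 0 and the highest, 44.5, is an outlier-marked spot of Prss54KO replicate 2.

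Id4, an inhibitor of basic helix-loop-helix factors that marks stem cells, also had 2 probes, both well above background on all 6 arrays. The brighter one (chr13:48358668-48358727, mm9, plus strand) gave 6186, 5476 and 6047 in WT and 5873, 5715 and 5911 in Prss54KO replicates 1, 2 and 3. The Prss54KO values lay within the WT range and spread less. On this probe the log2 difference was -0.04 (SE 0.06), a fold of 0.969 with a 95% interval of 0.879 to 1.07. The other probe (chr13:48359180-48359239, mm9, plus strand) gave 1152, 1097 and 1147 in WT and 1204, 1144 and 1165 in Prss54KO. Here the signals of Prss54KO replicates 1 and 3 lay above all WT signals, on the normalized scale only that of replicate 1 did, and the log2 difference was 0.02 (SE 0.05), with a 95% interval of the fold from 0.928 to 1.11. On both probes the genotypes overlapped, and limma's adjusted p rounded to 1 (0.9999 for the gene and 0.9998 for the dimmer probe).

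Nanos2 and Nanos3 encode RNA-binding proteins that repress target messenger RNAs, Nanos2 in stem cells and Nanos3 in cells further along. The Nanos2 probe (chr7:19573771-19573830, mm9, plus strand) was not well above background on any array. Its signal was 9.53, 8.39 and 7.74 in WT and 6.58 in Prss54KO replicate 3, each marked as significant, and a substitute value stood in Prss54KO replicates 1 and 2. No fold is given.

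The Nanos3 probe lies on chromosome 8, as Prss54 does, 11.38 Mb away (chr8:86700210-86700269, mm9, minus strand), and starts at base 182 of its transcript. It is shown because Nanos3 had the widest interval of the tested genes:
Nanos3 probe: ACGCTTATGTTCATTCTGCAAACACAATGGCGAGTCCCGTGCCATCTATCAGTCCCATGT
Its signal was 53.2, 56.7 and 67.9 in WT replicates 1, 2 and 3 and 46.8, 67.9 and 78.3 in Prss54KO replicates 1, 2 and 3. Prss54KO replicate 1 held the lowest value of all 6 mice and was the only one not well above background, and Prss54KO replicate 3 held the highest. For the genotypes this gave a log2 difference of 0.06 (SE 0.20, limma's adjusted p 0.9999), and the 95% interval of the fold, 0.751 to 1.45, leaves room for a change of either sign. Its SD over the WT mice was 0.14 on the log2 scale, against a median of 0.21 for genes of like level.

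Dmrt1, a transcription factor of Sertoli cells and spermatogonia, had 1 probe (chr19:25677951-25678010, mm9, plus strand). Its signal was 140.3, 182.2 and 161.7 in WT and 170.3, 169.2 and 158.4 in Prss54KO replicates 1, 2 and 3. All Prss54KO values lay within the WT range, which WT replicates 1 and 2 set at its ends. Dmrt1 differed by 0.02 (log2, SE 0.11, limma's adjusted p 0.9999), a fold of 1.01 with a 95% interval of 0.840 to 1.22.

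Kit is the receptor of differentiating spermatogonia. Its probe (chr5:76052287-76052346, mm9, plus strand, base 4665 of its transcript) stood in 10 spots per array, all 60 well above background. The level of an array is the mean log2 value of these spots. It came to 1131, 1190 and 1095 intensity units in WT and 1133, 1110 and 1175 in Prss54KO replicates 1, 2 and 3. All Prss54KO mice again lay inside the WT range. The SD between spots of 1 array was 0.03 to 0.06 on the log2 scale. The SD between mice was 0.11 in WT, above that range, and 0.03 in Prss54KO, within it. Between genotypes Kit differed by -0.03 (log2, SE 0.07, limma's adjusted p 0.9999), a fold of 0.981 with a 95% interval of 0.870 to 1.10. Leydig cells and, in adult testis, spermatids with a shorter form of the RNA also express Kit. Which forms the probe detects was not analysed here.

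Stra8, the retinoic acid target that germ cells need for meiotic entry, showed the largest difference among the 6 genes, without passing the test. Its probe (chr6:34889231-34889290, mm9, plus strand) gave 9388, 7438 and 8505 in WT and 8506, 7774 and 6832 in Prss54KO replicates 1, 2 and 3. Prss54KO replicate 3 was below every WT mouse, and the other Prss54KO mice lay at or within the WT values. The log2 difference was -0.16 (SE 0.12, limma's adjusted p 0.9999), a fold of 0.894 with a 95% interval of 0.735 to 1.09. Its absolute difference was larger than that of 85.1% of genes. It was -0.07 without WT replicate 1 and also -0.07 without Prss54KO replicate 3. The SD over WT mice, 0.16, was also larger than the 0.06 that was the median for genes of like level.

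**Figure D3:**
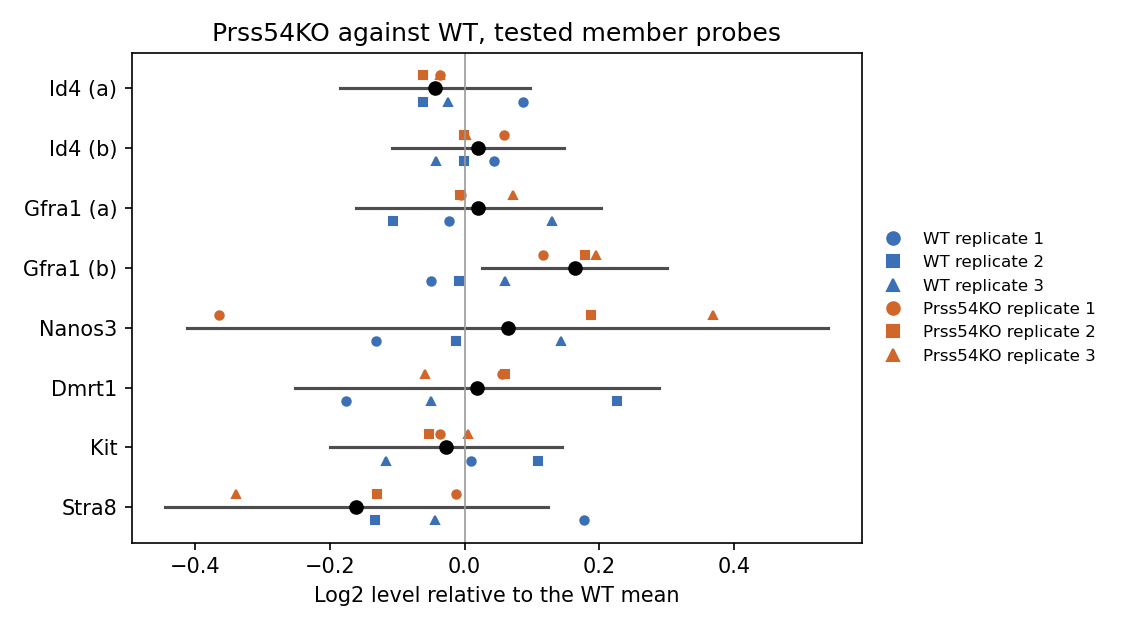
Log2 level of the 8 testable member probes relative to the WT mean. Black dots and bars are the difference between genotypes and limma's 95% interval, and coloured symbols are single mice, Prss54KO above and WT below each bar. Intervals hold 0 for 7 probes, and that of the dimmer Gfra1 probe runs from 0.03 to 0.30.

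The arrays stood on 3 slides, all scanned on 1 day. Slide 1 carried Prss54KO replicate 3, slide 3 carried the first 2 WT mice, and slide 2 alone held both genotypes, with the last WT mouse and the other 2 Prss54KO mice. On slide 2, several signs differed from the values above. The log2 difference there was -0.14 for the brighter Gfra1 probe, 0.09 for the dimmer one, -0.02 for Id4 (0.07 on its dimmer probe), 0.07 for Kit, -0.03 for Stra8, -0.23 for Nanos3 and 0.11 for Dmrt1. The slide as a fixed block gave the same values for these genes, since no other slide holds both genotypes. For Gfra1, Kit and Nanos3 the sign was thus opposite on slide 2, and Stra8 was near 0 there. Signals of the dimmer Gfra1 probe rose from slide 3 over slide 2 to slide 1. Its separation by genotype can thus not be fully told apart from one by slide.

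Relative to the WT mean, the median level of the 6 genes was -0.01, -0.04 and -0.03 in WT replicates 1, 2 and 3 and -0.02, -0.03 and -0.02 in Prss54KO replicates 1, 2 and 3. The Prss54KO mice lay within the WT range in this summary too. For each gene the most similar profile over the 6 arrays, by Pearson's r among all genes tested, was M60510 for Gfra1, Tnrc6c for Id4, Col22a1 for Kit, Paox for Stra8, Dapk1 for Nanos3 and Mia1 for Dmrt1. These r values ran from 0.986 to 0.993 over 6 arrays that share slides and genotypes. Between 27 and 52 genes reached an r above 0.95 with each of the 6, so a high r over so few arrays singles out no gene.

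As a check of the labels, the Prss54 probe gave 22677, 24152 and 26120 in WT and 7381, 9466 and 8416 in Prss54KO replicates 1, 2 and 3, a 2.96-fold lower level (log2 difference -1.56, SE 0.10, limma's adjusted p 0.0764). All 8 spermatid markers (Prm1, Prm2, Tnp1, Tnp2, Acrv1, Spaca1, Tssk6 and Odf1) were well above background on all arrays. Gene levels correlated between arrays at r of 0.994 to 0.997.

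Around the members, 7 lists of related genes were set beside them: ligands and receptors of the niche, other genes of undifferentiated and of differentiating spermatogonia, retinoic acid metabolism, meiotic entry, partners of Nanos and Zbtb16 proteins, and relatives of the members. No gene of any of the 7 lists passed limma's adjusted p of 0.05 (0% of all genes did, and 3.31% had an unadjusted p under 0.05).

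In the niche list, 17 of 19 genes were testable, with a median log2 difference of -0.04, against 0.01 over all genes. Unadjusted p-values under 0.05 were found for 0 genes above and 2 below. Those were Csf1, a growth factor of macrophages that also acts on spermatogonial stem cells, and the signalling ligand Wnt5a. Csf1 gave 616, 632 and 684 in WT and 553, 499 and 575 in Prss54KO replicates 1, 2 and 3. Every Prss54KO value was below every WT value, as in 3.61% of all genes, and the log2 difference was -0.28 (SE 0.07, limma's adjusted p 0.9999). Wnt5a differed by -0.25 (SE 0.09), and by -0.16 without WT replicate 3.

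Gdnf and Kitl, ligands of the members Gfra1 and Kit, were also measured, and are given for that role. Gdnf gave 43.7, 40.9 and 49.5 in WT and 45.8, 55.7 and 56.5 in Prss54KO replicates 1, 2 and 3, above all WT values in 2 of 3 mice, a log2 difference of 0.20 (SE 0.10). It was well above background on 5 of 6 arrays. Kitl, the Kit ligand, gave 537, 602 and 630 in WT and 573, 590 and 586 in Prss54KO, all within the WT range, with a log2 difference of -0.04 (SE 0.07). Another Kitl probe gave 0.10.

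Of 37 other genes of undifferentiated spermatogonia, 28 were testable and 5 were named on the array but never well above background. Their median log2 difference was -0.002, and 14 lay above 0. At an unadjusted p under 0.05 there were 0 above and 1 below. Thy1, a surface protein used to enrich stem cells, gave 173, 231 and 187 in WT and 128, 89.4 and 160.0 in Prss54KO replicates 1, 2 and 3. All Prss54KO values were below the WT values, and Prss54KO replicate 2 was the lowest. The log2 difference was -0.71 (SE 0.23, limma's adjusted p 0.9999), it was -0.49 without Prss54KO replicate 2, and another Thy1 probe gave -0.12. T cells, nerve and stromal cells also express Thy1. Relative to the WT mean, nerve and glia markers had a median of 0.04, 0.06 and 0.04 in Prss54KO replicates 1, 2 and 3. Peritubular cell markers stood at -0.05, -0.12 and 0.07 in the same mice, and there was no list of T cell markers. The part of any of these cells in the Thy1 value was not tested. Tcl1, the other gene named by its p, differed by 0.29 (SE 0.12), by 0.17 without WT replicate 2 and by 0.12 on slide 2. The GDNF-responsive transcription factor genes Etv5 and Bcl6b, given for that role, differed by 0.07 (SE 0.08) and -0.004 (SE 0.07).

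Among 20 other genes of differentiating spermatogonia, 19 were testable, the median log2 difference was 0.01, and 0 had an unadjusted p under 0.05. Ccnd2, a cyclin of the G1 phase, stood at -0.24 (SE 0.10), with other probes at -0.13 and -0.12, and the proliferation gene Mki67 at -0.11 (SE 0.06). Sohlh2, the partner of Sohlh1, gave 597, 688 and 666 in WT and 631, 711 and 641 in Prss54KO, a log2 difference of -0.005 (SE 0.09).

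In the retinoic acid list 17 of 22 genes were testable, with a median of -0.01 and 0 at an unadjusted p under 0.05. Cyp26a1, which breaks down retinoic acid, differed by -0.38 (SE 0.20). Its signal was 282, 287 and 339 in WT and 308, 241 and 178 in Prss54KO replicates 1, 2 and 3. The lowest value was that of Prss54KO replicate 3, and without it the Cyp26a1 difference was -0.17. The median of the list in that mouse was 0.03 relative to the WT mean.

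The meiotic entry list had 17 of 21 genes testable, a median of -0.04, 6 above 0 and 0 at an unadjusted p under 0.05. All 17 lay between -0.09 and 0.10. Gm1564 (Meioc), needed to keep the meiotic programme going, and the recombinase gene Dmc1 were both at or near the low end, at -0.08 (SE 0.05) and -0.09 (SE 0.05, or -0.06 without Prss54KO replicate 2). Both had all Prss54KO mice below all WT mice, on 2 of 17 genes, where 3.61% of all genes did. The count was also 2 of 17 in the niche list and 2 of 17 in the retinoic acid list. It was 2 of 28 for undifferentiated and 0 of 19 for differentiating spermatogonia. For partners of Nanos and Zbtb16 proteins it was 1 of 18, and for relatives of the members 3 of 24.

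Of the genes whose products act with Nanos and Zbtb16 proteins, all 18 were testable, with a median of 0.02 and 1 below at an unadjusted p under 0.05. That gene was Cnot1, the scaffold of the deadenylation complex, at -0.18 (SE 0.05), with other probes at -0.20 and -0.03. It lies 0.1606 Mb from Prss54 on chromosome 8. Cnot6, a deadenylase subunit, was at -0.08 (SE 0.07), and at -0.01 without Prss54KO replicate 1. Close relatives of the members were all testable, 24 of 24, with a median of 0.01 and 1 above at an unadjusted p under 0.05, Dmrt3 at 0.27 (SE 0.11). Id2 stood at -0.18 (SE 0.08), with other probes at -0.15 and 0.04.

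**Figure D4:**
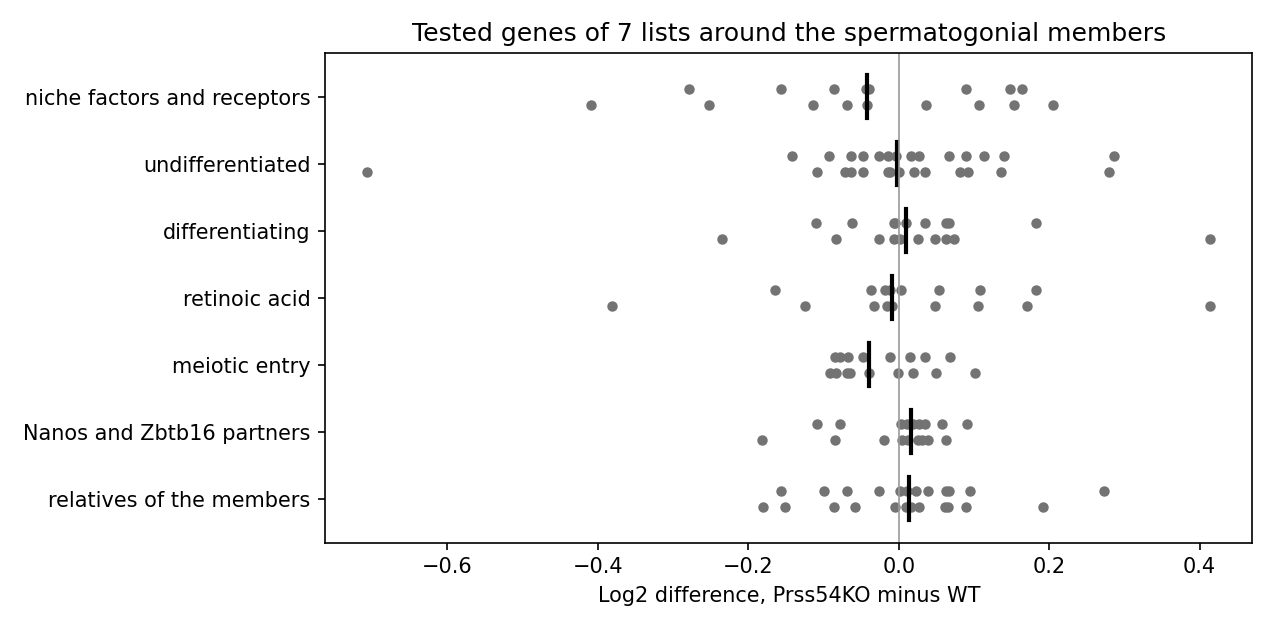
Log2 difference, Prss54KO minus WT, of each testable gene in the 7 lists around the members (grey points; a gene in several lists appears in each) with the list median (black bar). Medians lie between -0.04 and 0.02, the meiotic entry genes span the narrowest range, and the lowest point is Thy1 at -0.71.

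Markers of other testis cells were set beside these values. The sum of their levels, in units of each array's 75th percentile, was 30.6 to 35.7 in WT and 31.2 to 31.5 in Prss54KO for 5 Leydig cell genes of 6 listed. All 5 had a log2 difference below 0, as did 46.8% of all genes tested, and their median was -0.09 (Star at -0.58, SE 0.24, or -0.37 without WT replicate 3, and Hsd3b1 at -0.09, SE 0.05). Their part in the Kit value was not tested. For 9 of 9 Sertoli cell genes, which share Dmrt1 with spermatogonia, the sum was 70.1 to 75.6 in WT and 72.1 to 75.7 in Prss54KO, with a median of 0.02. Fshr was at -0.15, or -0.05 without Prss54KO replicate 1. Amh, well above background on 3 of 6 arrays, was at 0.22, and at -0.02 without Prss54KO replicate 3. The 8 spermatocyte genes summed to 176.9 to 183.7 in WT and 184.6 to 190.4 in Prss54KO, so that every Prss54KO sum lay above every WT sum. A sum is set mostly by its brightest probes, and no share of such sums over other genes was computed. Taken singly, 0 of the 8 genes had all Prss54KO mice above all WT mice, where 4.18% of all genes did. Of these genes 7 lay above 0, with a median of 0.04 (Ccna1 at 0.13, and Piwil1 at -0.08, or -0.005 without WT replicate 1). The part of spermatocyte RNA in the values of the members and of the meiotic entry genes was not tested. Spermatid genes summed to 1058 to 1113 and 1048 to 1129, with a median of 0.0006 (Spaca1 at 0.12, or 0.05 without Prss54KO replicate 2, and Tnp1 at 0.04, or 0.03 without WT replicate 2).

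In the remaining marker lists, too, no gene passed limma's adjusted p of 0.05, and Cdh5 alone had an unadjusted p under 0.05. For 6 macrophage genes the sum was 8.00 to 10.67 in WT and 7.48 to 11.3 in Prss54KO, with a median of -0.06 (Cd68 at -0.18, or -0.005 without Prss54KO replicate 2, and Emr1 at -0.05, or -0.03 without Prss54KO replicate 3). Of 7 mast cell genes, which share Kit, only 3 were testable and 3 were never well above background. The testable ones summed to 0.0908 to 0.164 in WT and 0.0969 to 0.168 in Prss54KO. Cma1 was at 0.33, or 0.07 without WT replicate 2, and Cpa3 at -0.45, or -0.05 without WT replicate 1. Of 8 nerve and glia genes 5 were testable, summing to 2.94 to 3.01 in WT and 2.73 to 3.12 in Prss54KO (Sox10 at 0.12, or 0.008 without WT replicate 1). The 5 peritubular genes summed to 15.0 to 15.5 and 13.9 to 15.8 (Des at 0.07, or 0.04 without WT replicate 1, and Cnn1 at -0.06, or -0.006 without WT replicate 1). Endothelial genes, 4 of 5 testable, summed to 0.726 to 0.810 in WT and 0.651 to 0.715 in Prss54KO, which did not overlap. For these sums, too, no share over other genes was computed. The median of the 4 genes was -0.14. Cdh5 at -0.18 and Plvap at -0.16 had all Prss54KO mice below all WT mice, as did 3.61% of all genes, while Tek, named after its value was seen, was at 0.10 with overlapping groups.

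Zbtb16 and Sohlh1 were not analysed here, since no gene spot carried either name, a synonym of it or a transcript accession that the RefSeq table gives for it.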

How the data were processed

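The members and gene lists were chosen with earlier results of these data known. The deposited scanner files hold spot intensities on a linear scale, written by Agilent Feature Extraction 10.7.3.1 per the file headers (10.7 per the submitters' processing notes), from 0.5 ug RNA per the labels' protocols. As other measures, the deposited files carry 0 or 1 marks for each spot. Probe positions are those of mm9 per the file headers; no mm9 annotation was used here, so exons and untranslated regions under probes are not given. The deposited series table holds log2 values with the same quantiles in all columns, and served as an alternative. Each array had 43379 gene spots, 66.2% to 74.8% well above background and 0 saturated; 86 to 142 outlier spots per array were left out. The number of arrays limits the precision.

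Log2 processed signals minus the array's 75th percentile were averaged over spots of a probe. Kept were probes measured on all arrays that were well above background on 3 or more of the 6. A gene was its brightest probe, and all probes were also fitted as rows. Genotypes were compared by two-sided moderated tests (R 4.3.3, limma 3.58.1, its lmFit and eBayes functions) with Benjamini-Hochberg adjustment over all genes or probes at 0.05, tested on simulated data. The text names all members, the 2 genes of smallest p per list and the most similar profile of each member; Gdnf, Kitl, Etv5, Bcl6b and Sohlh2 were added for their role, and 2 genes that the rule names are not reported here. RefSeq names are those of GRCm38.p6. Of 223 list entries, 210 matched by name, 5 by an older name or synonym and 8 did not match. Alternatives were other scalings, background correction, filters, probe rules, the series table, slide and replicate blocks, variance settings and each array left out.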

Additional observations from a re-analysis of the deposited data

How the results depend on the processing

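Under 19 alternatives, 0 members passed the threshold with limma, as did 0 member probes under the 18 that apply. The count of all genes past it was 1 with normexp, 2 with the filter on all 6 arrays, 1 with the slide as a fixed block and 2 with the intensity trend and robust variance. The median difference of the members was -0.024 with median scaling, -0.028 with the filter on all 6 arrays, -0.026 with the slide as a fixed block or on slide 2 alone, and -0.047 to -0.0034 with 1 array left out. No member's adjusted p fell below 0.705, that of the dimmer Gfra1 probe, whose difference ran from 0.072 to 0.19 in the 18 alternatives. Id4 as a gene and Stra8 kept their sign in all 19, at -0.089 to -0.0011 and -0.23 to -0.027. The dimmer Id4 probe had the opposite sign, at 0.02, and kept it in 17 of 18. Signs turned for others: on slide 2, alone or as a fixed block, Gfra1 was -0.14, Kit 0.072 and Nanos3 -0.23. Dmrt1 was -0.00016 with quantile normalization, -0.00025 with median scaling and -0.0025 in the authors' table. With 1 array left out, Gfra1 ran from -0.033 to 0.085, Kit from -0.087 to 0.026, Nanos3 from -0.089 to 0.28, Dmrt1 from -0.070 to 0.13 and the dimmer Id4 probe from -0.0015 to 0.041. Nanos3 has no value under the filter on all 6 arrays. Deviations of same-numbered mice correlated at r of -0.04, 0.02 and -0.16, and those of differently numbered mice at -0.18 to 0.18. With so few mice, these r values cannot settle whether the numbers pair mice. The replicate block gave 0 genes past the threshold and a members' median of -0.0049, and moved the unadjusted count from 642 to 780. For Ret and Nanos2 the signal stands too close to background to measure a difference. The dimmer Gfra1 probe was well above background on all 6 arrays, and Nanos3 on all but that of Prss54KO replicate 1. Both stood near the lowest signals with that mark.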
